A study of Mus musculus with 8 samples.

Results

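The PYHIN family of mouse chromosome 1 was described in RNA-seq of the right cerebral cortex from mice after sham surgery or bilateral carotid artery stenosis (BCAS). The family was given as 10 gene symbols, Aim2, Ifi203, Ifi204, Ifi206, Ifi207, Ifi209, Ifi211, Ifi213, Mndal and Mnda. Of these, 9 had a row of their own among the 54752 genes of the count tables. Mnda had none, and RefSeq lists that symbol as a synonym of Ifi211, so it was not given a value. The tables hold 14 PYHIN genes in this stretch of the chromosome. The 5 outside the list (Ifi202b, Ifi203-ps, Ifi205, Ifi208 and Ifi214) are given after the members.

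PYHIN proteins typically join a pyrin domain, which binds other pyrin domains, to a HIN domain, which binds double-stranded DNA. Aim2 senses DNA in the cytosol and assembles an inflammasome with the adaptor ASC and caspase-1, while other members act in the nucleus or upstream of the adaptor STING. In macrophages and microglia most of these genes are inducible by interferon. The family has expanded in the mouse, and its genes lie side by side.

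The mice were wild-type male C57BL/6 mice (C57BL/6 J in the methods), listed at 14 weeks of age, with 4 sham and 4 BCAS mice and 1 mouse per library. All were sampled 3 weeks after surgery. In BCAS mice a microcoil of 0.16 mm inner diameter had been placed on the right common carotid artery and one of 0.18 mm on the left, which narrows both vessels for as long as the coils stay. The cortex analysed was from the side of the narrower coil, and it was a whole piece of tissue with all of its cell types.

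Total counts ran from 16759364 to 21794435 per library, so that a count of 0 allowed a level of up to 0.179 CPM, the count scaled to the size of the library. Intervals and floors of this kind cover counting error only. Cortical neuron genes were abundant in every library, with a summed level of 7542 to 9162 CPM in sham and 2815 to 6356 CPM in BCAS mice over 9 markers. Sham mouse 3 stood apart in 4 choroid plexus markers, with 767 CPM against 13.5 to 49.4 CPM in the other sham mice, and BCAS mouse 4 was highest in 5 striatal markers, with 554 CPM. None of the 9 genes lost its call when either library was left out.

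The 9 genes lie within 591.8 kb of chromosome 1 (GRCm38/mm10, 173350879 to 173942672), 2 on the plus strand and 7 on the minus strand. Their promoters are shown because one short element recurs in several of them, in most of these at nearly the same place. RefSeq promoter windows (GRCm38.p6), reaching from 250 bases before to 50 bases after each start, were matched by symbol for 8 of the 9 genes, and Ifi204 had no entry. They were searched on both strands for GAAA, any 2 bases and GAAA again, the core of the interferon-stimulated response element bound by interferon regulatory factors. The letters were present in 6 of the 8 genes, and in 3.44% of all 32851 windows of the same length or 3.99% of 27025 genes. The 6 are not independent, since some of the stretches below are identical or nearly so. The windows were also searched for TTC, any 3 bases and GAA, letters present in 0 of the 8 genes and in 9.55% of the 27025 genes. Each stretch below holds 60 bases read along the gene's own strand, with the match to the GAAA letters in capitals.
Ifi206: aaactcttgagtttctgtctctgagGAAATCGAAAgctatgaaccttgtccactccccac
Ifi213: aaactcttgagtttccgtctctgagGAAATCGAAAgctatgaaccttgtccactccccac
Ifi207: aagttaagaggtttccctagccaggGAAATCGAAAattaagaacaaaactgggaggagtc
Ifi211: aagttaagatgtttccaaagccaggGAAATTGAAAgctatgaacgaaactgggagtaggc
Mndal: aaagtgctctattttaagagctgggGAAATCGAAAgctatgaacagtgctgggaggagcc
Ifi203: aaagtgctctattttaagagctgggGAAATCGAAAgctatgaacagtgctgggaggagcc
Ifi209: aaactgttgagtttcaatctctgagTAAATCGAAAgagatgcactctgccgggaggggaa

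These stretches are chr1:173491324-173491383 for Ifi206, chr1:173599311-173599370 for Ifi213, chr1:173741816-173741875 for Ifi207, chr1:173913049-173913108 for Ifi211, chr1:173880189-173880248 for Mndal and chr1:173942493-173942552 for Ifi203, all on the minus strand. The match began between 35 and 41 bases before the start in Ifi203, Mndal, Ifi211, Ifi206 and Ifi207, and 73 bases before it in Ifi213. A second RefSeq window of Mndal held another match on the opposite strand, 54 to 45 bases before that start. The counted gene model of Mndal reaches to 173942491, so both of its RefSeq starts lie inside that model. Ifi203 also had 2 RefSeq windows, and only the second held the match. Ifi206 and Ifi213 shared 59 of 60 bases, and Mndal and Ifi203 shared 60 of 60. Ifi207 and Ifi211 shared 50 of 60 with each other and 52 and 54 with Ifi205, whereas Ifi206 and Ifi207 shared 28.

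Aim2 and Ifi209 held no match in their windows. For Ifi209, the stretch at chr1:173630755-173630814 on the plus strand, shown last, differs from the searched letters by 1 substitution, G1T, counted from the first letter of the element, and its capitals mark the 10 letters compared. A second place in the window, 177 to 168 bases before the start, differs by G7C. Places 1 substitution away, on the gene's strand and before the start, occur in 16.5% of all windows. The stretch of Ifi209 shared 54 of 60 bases with that of Ifi214 and 41 with that of Ifi206. A match is a description of the letters, and no binding was measured.

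In BCAS mice all 9 genes were higher than in sham mice. Summed over the 9 genes, the level was 6.35, 7.41, 7.19 and 8.07 CPM in sham mice 1 to 4, against 311, 45.3, 157 and 97.0 CPM in the 4 BCAS mice. The sham mice lay close together, while the BCAS mice spread over a 6.86-fold range, and the lowest of them was far above the highest sham mouse. The mean went from 7.26 ± 0.709 CPM (SD, n = 4) to 153 ± 115 CPM (SD, n = 4), a 21.0-fold difference of means. Without BCAS mouse 1 it was 13.8-fold.

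**Figure D1:**
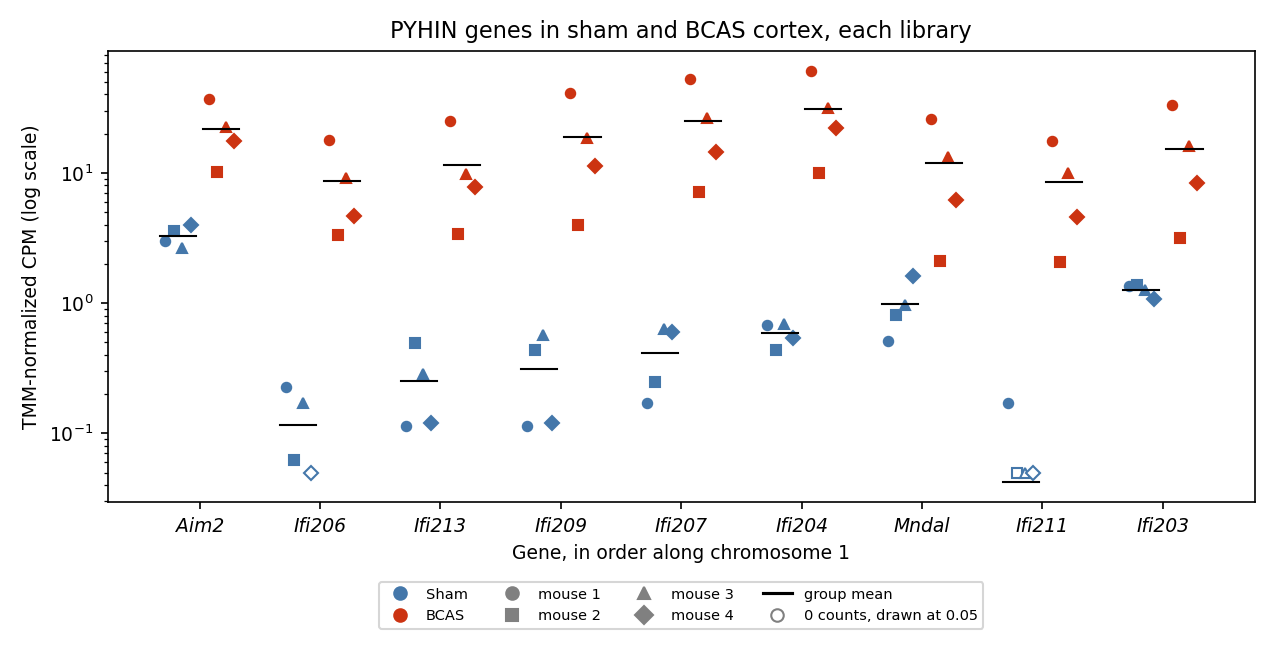
TMM-normalized CPM (log scale) of the 9 PYHIN genes in each of the 8 libraries, with sham mice in blue, BCAS mice in red, a symbol for each mouse, a bar for the group mean and open symbols for 0 counts. In each gene the 4 BCAS mice lie above the 4 sham mice, with the smallest gap in Mndal (1.63 CPM in the highest sham and 2.11 CPM in the lowest BCAS mouse).

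Each of the 9 genes was called higher in BCAS mice. A call took a log2 fold change beyond 1 in either direction together with an adjusted p under 0.05 (edgeR quasi-likelihood test, Benjamini-Hochberg over 17136 genes). Of all genes tested, 11.0% were called higher and 1.28% lower. In all 9 genes every BCAS mouse was above every sham mouse, which held for 18.5% of all genes tested. The count of 9 does not stand as support by itself, because the filter on low counts (about 0.558 CPM in at least 4 libraries) was met by 2 of the genes in every sham mouse and by 3 of them in no sham mouse. The median log2 fold change was 5.70 (2.74 to 7.40), against -0.01 over all genes tested. Among the 17136 genes ranked by log2 fold change, 6 of the 9 stood in the first 100, from Ifi211 at rank 13 to Ifi213 at rank 53, while Mndal, Ifi203 and Aim2 stood at ranks 280, 285 and 530. Those 6 met the filter in at most 2 sham mice, and their fold changes rest on low sham counts. Nothing is therefore read from their ranks or from the median.

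Aim2 (ENSMUSG00000037860.15, chromosome 1, 173350879 to 173466040, plus strand), the inflammasome sensor of cytosolic DNA, was the member with the highest level per kilobase of exon in sham mice and the smallest change. Its level in sham mice 1 to 4 was 3.01, 3.55, 2.63 and 3.97 CPM, and in BCAS mice 1 to 4 it was 37.2, 10.2, 22.7 and 17.5 CPM. The groups did not overlap, and BCAS mouse 1 was 3.63 times as high as BCAS mouse 2. The log2 fold change was 2.74 ± 0.37 (SE), a 6.66-fold difference (edgeR quasi-likelihood test, Benjamini-Hochberg adjusted p = 0.00254).

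Ifi204 (ENSMUSG00000073489.6, chromosome 1, 173747293 to 173766943, minus strand) encodes p204, a DNA sensor linked to STING and often set beside human IFI16. Sham mice 1 to 4 had 0.681, 0.436, 0.685 and 0.542 CPM, from 7 to 12 counts each, and BCAS mice 1 to 4 had 60.3, 9.92, 31.5 and 22.0 CPM. Barely detected in sham cortex, it was plainly expressed in each BCAS mouse, the lowest of which was 14.5 times the highest sham mouse. Its log2 fold change of 5.70 ± 0.60 (SE), a 52.0-fold difference, had the lowest adjusted p of the family (edgeR quasi-likelihood test, Benjamini-Hochberg adjusted p = 0.00146).

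Ifi203 and Mndal encode nuclear PYHIN proteins, and they were the members with the widest spread between BCAS mice. Their gene models overlap, since that of Mndal spans all of Ifi211 and nearly all of Ifi203. RefSeq lists the symbol Mndal as a synonym of Ifi203 too. For Ifi203 (ENSMUSG00000039997.16, 173920407 to 173942672, minus strand) sham mice 1 to 4 had 1.36, 1.37, 1.26 and 1.08 CPM and BCAS mice 1 to 4 had 33.3, 3.14, 16.1 and 8.43 CPM. For Mndal (ENSMUSG00000090272.8, 173849126 to 173942491, minus strand) the sham mice had 0.510, 0.810, 0.970 and 1.63 CPM and the BCAS mice 26.1, 2.11, 13.2 and 6.20 CPM. BCAS mouse 2 was only 1.30 times as high as the highest sham mouse in Mndal and 2.29 times in Ifi203. The log2 fold changes were 3.58 ± 0.66 (SE) for Ifi203 and 3.60 ± 0.74 (SE) for Mndal, with adjusted p values of 0.00657 and 0.00974 (edgeR quasi-likelihood test, Benjamini-Hochberg). Without BCAS mouse 1 these fell to 2.87 and 2.88 and both calls were kept, but limma-voom ended both calls, with adjusted p values of 0.0528 for Ifi203 and 0.0634 for Mndal. The exons of the pair share 37 bases on the same strand, which is 1.02% of the exon bases of Mndal, and Mndal shares a further 118 bases with the gene model Gm38050.

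Ifi207 and Ifi209 rose to levels near that of Aim2 per kilobase of exon, from counts of 11 or fewer per sham mouse. Ifi207 (ENSMUSG00000073490.11, 173723427 to 173741747, minus strand) had 3, 4, 11 and 10 counts in sham mice 1 to 4, against 1197, 139, 488 and 267 counts in the 4 BCAS mice. Ifi209 (ENSMUSG00000043263.13, 173630917 to 173647928, plus strand) had 2, 7, 10 and 2 counts in the sham group, which compare with 935, 78, 346 and 208 counts after BCAS. Both were far above sham in each BCAS mouse, with the lowest BCAS mouse 11.4 times the highest sham mouse in Ifi207 and 7.02 times in Ifi209 on the CPM scale. The log2 fold changes were 5.91 ± 0.74 (SE) and 5.89 ± 0.84 (SE), with adjusted p values of 0.00203 and 0.00280 (edgeR quasi-likelihood test, Benjamini-Hochberg), and they were 5.26 and 5.17 without BCAS mouse 1.

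Ifi206 and Ifi213, the pair whose promoters differ by 1 base of 60, were both close to absent in sham cortex. Ifi206 (ENSMUSG00000037849.8, 173468485 to 173491041, minus strand) had 4, 1, 3 and 0 counts in sham mice 1 to 4, against 404, 65, 169 and 86 counts in the 4 BCAS mice. Ifi213 (ENSMUSG00000073491.11, 173566283 to 173599274, minus strand) had 2, 8, 5 and 2 counts in the sham group, which compare with 575, 66, 183 and 142 counts after BCAS. In sham mice the level of Ifi206 was 0 to 0.227 CPM, where a count of 0 alone allows up to 0.179 CPM, so its fold change rests on few counts. The log2 fold changes were 6.14 ± 0.78 (SE) for Ifi206 and 5.49 ± 0.75 (SE) for Ifi213, with adjusted p values of 0.00210 and 0.00254 (edgeR quasi-likelihood test, Benjamini-Hochberg). Without BCAS mouse 1 they were 5.53 and 4.77.

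Ifi211 (ENSMUSG00000026536.9, 173896345 to 173913046, minus strand), the gene RefSeq also names Mnda, had the largest fitted change of the family. It had 3, 0, 0 and 0 counts in sham mice 1 to 4, against 403, 40, 186 and 84 counts in the 4 BCAS mice. Of the 4 sham mice, only mouse 1 had any count. The ratio of the summed counts, 713 against 3 and scaled by library size, was 216 with an exact 95% interval of 73.7 to 1052, and 131 without BCAS mouse 1. The fitted log2 fold change of 7.40 ± 1.04 (SE; edgeR quasi-likelihood test, Benjamini-Hochberg adjusted p = 0.00280) depends on the prior given to such low counts, and it was 10.31 without sham mouse 1 and 6.78 without BCAS mouse 1. Its transcripts are also the hardest of the family to tell apart, since 46.4% of their 150-base windows occur in another gene's transcripts, chiefly those of Ifi205.

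**Figure D2:**
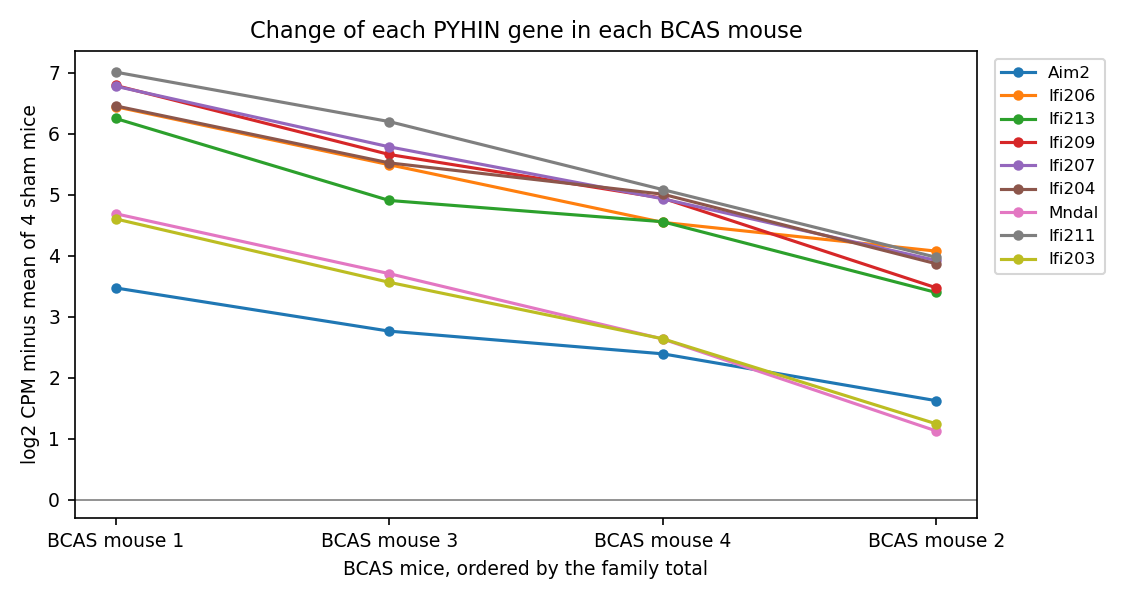
Log2 CPM of each PYHIN gene in each BCAS mouse minus the mean of the 4 sham mice (prior count 2), with 1 line per gene joining the BCAS mice in the order of their family total. The 9 lines fall together from BCAS mouse 1 to BCAS mouse 2, and Aim2, Mndal and Ifi203 run below the other 6.

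The 4 BCAS mice had the same order in all 9 genes, with mouse 1 highest, followed by mice 3, 4 and 2. That order was also the most usual one elsewhere, and held for 69.3% of the 1877 genes called higher. On the log2 scale the mean change over the 9 genes was 5.83, 2.97, 4.85 and 4.08 in BCAS mice 1 to 4. The spread differed between members, from a 3.63-fold range between BCAS mice in Aim2 and 5.30 in Ifi206 to 10.6 in Ifi203 and 12.4 in Mndal.

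Per kilobase of exon, where levels can be set side by side between genes, the order of the members differed between the groups. In sham mice Aim2 led with 0.940 ± 0.170 CPM per kb (SD, n = 4), followed by Mndal at 0.270 ± 0.130, Ifi203 at 0.189 ± 0.0198, Ifi204 at 0.165 ± 0.0337 and Ifi207 at 0.121 ± 0.0691. Below them came Ifi209, Ifi206, Ifi213 and Ifi211, at 0.0874, 0.0377, 0.0372 and 0.0238 CPM per kb. Only the step from Aim2 to Mndal exceeded the SDs of both genes. In BCAS mice Ifi204 led with 8.69 ± 6.03 CPM per kb, followed by Ifi207 at 7.34 ± 5.81, Aim2 at 6.26 ± 3.25, Ifi209 at 5.29 ± 4.51 and Ifi211 at 4.81 ± 3.88. Mndal, Ifi206, Ifi203 and Ifi213 followed at 3.28, 2.85, 2.27 and 1.69 CPM per kb, and no 2 neighbours in this order differed by more than their SDs. It is an order of means, to which BCAS mouse 1 gave the most, and it did not hold in each mouse. In BCAS mouse 2, Aim2 had 10.2 CPM over 3501 exon bases, above Ifi204 with 9.92 CPM over 3561.

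**Figure D3:**
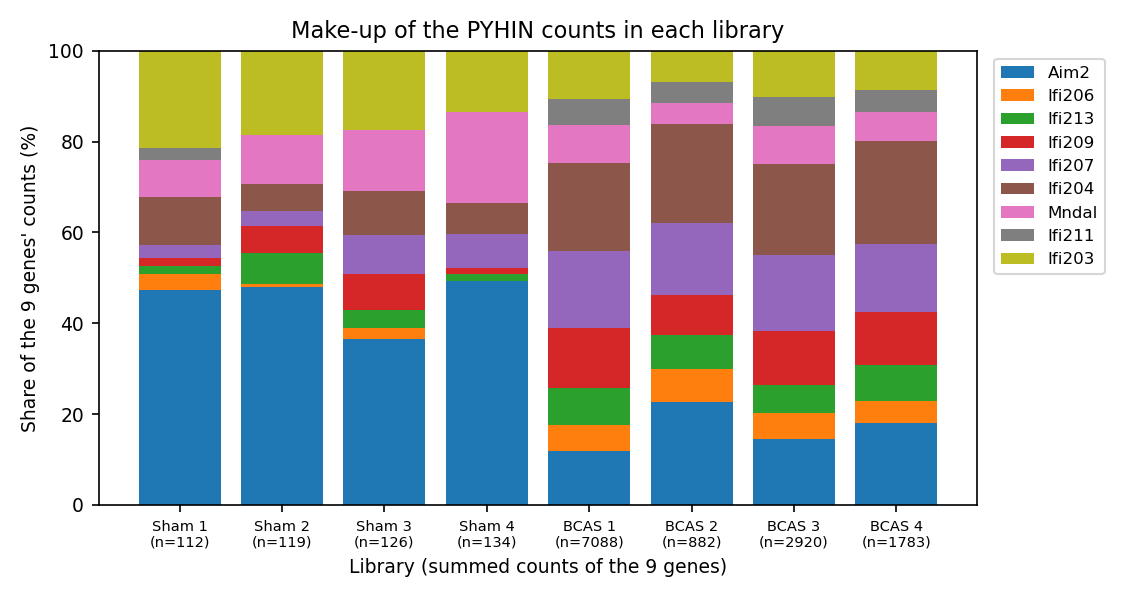
Share (%) of each gene in the summed counts of the 9 PYHIN genes, 1 bar per library, with the summed counts under each bar. Aim2 makes up 36.5% to 49.3% of the bar in sham mice and 11.9% to 22.6% in BCAS mice, while Ifi204 widens from at most 10.7% to at least 19.4%.

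Within the family the shares of Aim2, Ifi203 and Mndal were lower in BCAS mice, with some overlap for Mndal. Aim2 held 47.3%, 47.9%, 36.5% and 49.3% of the family's counts in sham mice 1 to 4, but 11.9%, 22.6%, 14.4% and 18.1% after BCAS. The sham shares rest on 112 to 134 counts and the BCAS shares on 882 to 7088, and the groups did not overlap. Ifi204 went from 5.88% to 10.7% in sham mice to 19.4% to 22.7% in BCAS mice, and Ifi207 from a mean of 5.56% to one of 16.1%. Ifi203 held 13.4% to 21.4% in sham and 6.92% to 10.7% in BCAS mice, without overlap, and Mndal 8.04% to 20.1% and 4.65% to 8.39%, with overlap. The ratio of each of the other 8 genes to Aim2 in the same library was then compared, after their values had been seen and with no test. On the log2 scale the ratio was higher in each BCAS mouse than in each sham mouse for 6 of the 8, all but Mndal and Ifi203, and for 1.25% of all genes tested. The 6 met the filter on low counts in at most 2 of the 4 sham mice and so entered the table through the group in which they were high, and nothing is read from their count. For Ifi204 the mean log2 ratio to Aim2 was -2.29 in sham and 0.36 in BCAS mice, and for Ifi206 it was -4.04 and -1.46. The sham value of Ifi206 rests on 4, 1, 3 and 0 counts and so depends on the prior count of 2.

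Of the 5 other PYHIN genes of the stretch, 2 passed the filter on low counts, and both were called higher, against 11.0% of all genes. Ifi208 met that filter in 0 sham mice and Ifi203-ps in 1, so both entered the test through the BCAS mice and nothing is read from their count. That count was 1 without sham mouse 4, BCAS mouse 1, BCAS mouse 3 or BCAS mouse 4, and 4 of 4 tested without BCAS mouse 2. Ifi208 had 2, 3, 1 and 2 counts in sham mice 1 to 4, against 174, 31, 51 and 27 after BCAS. The log2 fold change was 4.76 ± 0.73 (SE; edgeR quasi-likelihood test, Benjamini-Hochberg adjusted p = 0.00347), and it was 3.97 without BCAS mouse 1. Its 60-base promoter stretch was identical to that of Ifi213. Ifi203-ps, annotated as a pseudogene by its name, had 14, 3, 6 and 2 counts in the sham group and 41, 13, 22 and 18 after BCAS. These groups overlapped, and its call, at a log2 fold change of 1.65 ± 0.54 (SE; edgeR quasi-likelihood test, Benjamini-Hochberg adjusted p = 0.0453), was lost in 9 of 16 alternatives, with adjusted p values up to 0.117. The log2 fold change was 2.37 without sham mouse 1.

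Ifi205, Ifi214 and Ifi202b had too few counts to pass the filter. With no filter beyond 1 count in total, 3 of the 5 other PYHIN genes were called higher, against 2195 of 32537 genes tested. Ifi203-ps was not among the 3 (edgeR quasi-likelihood test, Benjamini-Hochberg adjusted p = 0.0690). Ifi214 had 0 counts in every sham mouse and 57, 2, 19 and 10 in BCAS mice, which was at least 6.30-fold higher against a floor of 3 counts per library, and at least 3.33-fold higher without BCAS mouse 1. This last value was added after the data had been seen. Ifi205 had 1, 3, 0 and 0 counts in the sham group and 53, 1, 19 and 13 after BCAS. The groups overlapped, with BCAS mouse 2 below sham mouse 2. Ifi202b, whose product p202 lacks a pyrin domain and is known to restrain Aim2, had 0 counts in every sham mouse and 2, 1, 0 and 0 in BCAS mice, so that no difference was detectable at this depth.

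**Figure D4:**
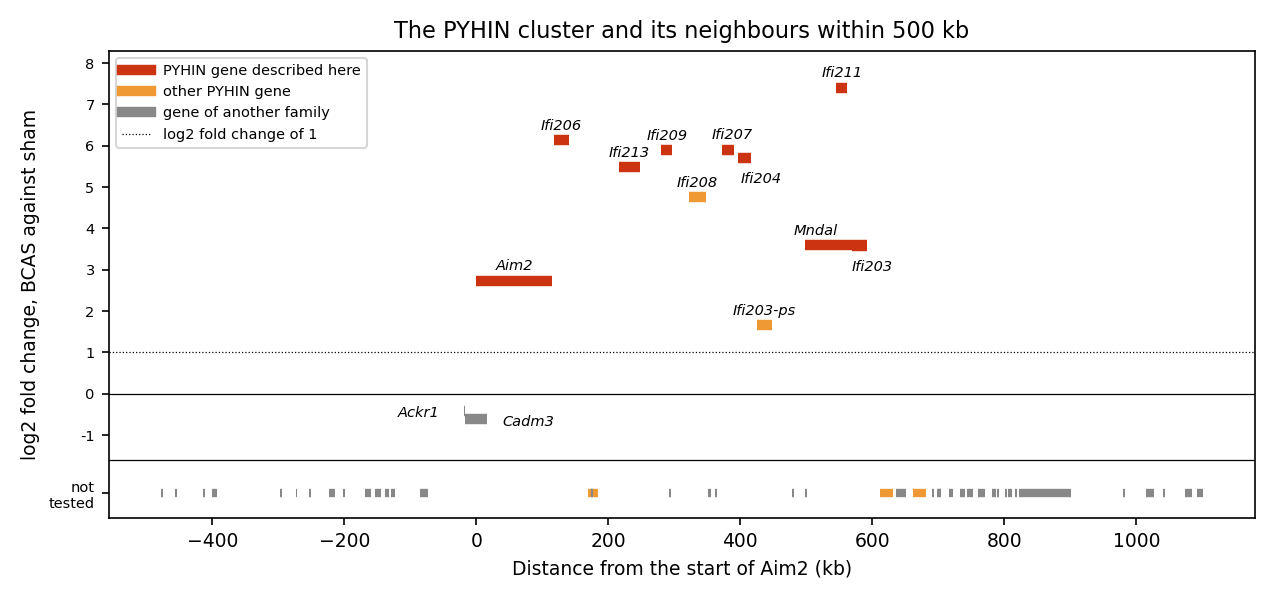
Log2 fold change (BCAS against sham) of the tested genes by their position along chromosome 1, in kb from the start of Aim2, with each bar as long as its gene and genes with too few counts to test in a separate row at the bottom. Red bars are the 9 PYHIN genes, orange bars the 5 others and gray bars genes of other families. Ackr1 and Cadm3, the 2 tested neighbours, lie just below 0.

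Outside the family, few genes of the surrounding stretch had enough counts to be tested. Within 500 kb on either side the tables hold 60 genes, 14 of them PYHIN genes, and of the other 46 only Ackr1 and Cadm3 were tested and 0 were called, against 12.2% of all genes called in either direction. Within 1000 kb, 3 of 13 tested were called higher, against 11.0% of all genes. Within the 500 kb, a further 34 of the 46 had no count in any library. The stretch holds 26 olfactory receptor genes, none of which exceeded 6 counts over the 8 libraries. Cadm3, a neuronal cell adhesion gene that overlaps Aim2 on the opposite strand without shared exon bases, had 498, 514, 572 and 504 CPM in sham mice 1 to 4, against 191, 509, 358 and 304 CPM after BCAS. Its log2 fold change was -0.62 ± 0.25 (SE; edgeR quasi-likelihood test, Benjamini-Hochberg adjusted p = 0.0846). Ackr1, a decoy receptor for chemokines, had a mean of 36.9 ± 2.10 CPM (SD, n = 4) in sham and 27.7 ± 5.38 CPM (SD, n = 4) after BCAS. Its log2 fold change of -0.41 ± 0.14 (SE; edgeR quasi-likelihood test, Benjamini-Hochberg adjusted p = 0.0462) was below the size needed for a call. The unadjusted p was under 0.05 for both genes.

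Microglia and macrophages are the cells of the brain best known for PYHIN expression, and their summed markers were also higher in BCAS mice. All 12 microglia markers tested were called higher, against 11.0% of all genes, with a median log2 fold change of 2.92. Their summed level was 412 to 492 CPM in sham mice, and 6872, 1802, 3467 and 3590 CPM in BCAS mice 1 to 4. BCAS mouse 4 was thus slightly above mouse 3, whereas all 9 PYHIN genes were higher in mouse 3. The border macrophage and blood leukocyte sums ran in the PYHIN order, mice 1, 3, 4 and 2. C1qa, the complement component, rose by 4.31 ± 0.41 (SE) on the log2 scale, and Fcrls, a receptor-like gene that marks microglia, by 3.83 ± 0.38 (SE). Among border macrophage markers 4 of 6 tested were called higher, with a summed level of 14.0 to 16.9 CPM in sham and 25.1 to 88.8 CPM in BCAS mice. Of these 4, Ms4a7 and Cbr2 met the filter on low counts in 2 sham mice each. They could enter the test through the BCAS mice, so nothing is read from the border macrophage count. With at least 10 counts in every library, 3 of 4 border macrophage markers tested were called. Of 15 blood leukocyte markers 4 were tested and 4 were called higher. Cd8a and Ly6c2 met the filter on low counts in 0 sham mice and Ccr2 in 2, so nothing is read from that count of 4. The summed level over the 15 was 1.87 to 4.14 CPM in sham and 8.95 to 171 CPM in BCAS mice. Ly6g, a neutrophil marker, was at 0 in every library. S100a8 and S100a9, of the same list, were not tested. Their means were 0.175 and 0.158 CPM in sham, and 1.63 and 2.64 CPM in BCAS mice. The groups overlapped for S100a8 but not for S100a9. In these libraries of whole cortex, more or fewer cells of a type cannot be told apart from more or less RNA per cell. Under limma-voom 2 of the 6 border macrophage and 2 of the 4 blood leukocyte markers tested were called. Astrocyte and neuron markers differed too, whereas 0 of 5 oligodendrocyte and 0 of 4 endothelial markers were called, with overlapping summed levels. Of 6 astrocyte markers 2 were called higher, with a summed level of 4465 to 5144 CPM in sham and 5978 to 9011 CPM in BCAS mice, and Gfap, the filament protein of reactive astrocytes, changed by 3.90 ± 0.36 (SE) on the log2 scale. Of 9 cortical neuron markers 2, Snap25 and Tbr1, were called lower, against 1.28% of all genes, by log2 fold changes of -1.07 ± 0.26 (SE) and -1.10 ± 0.29 (SE). Neither was called without sham mouse 1 or 4 or BCAS mouse 1 or 4, where their log2 fold changes ran from -1.05 to -0.86 for Snap25 and from -1.10 to -0.86 for Tbr1. The part of these markers in the change of the PYHIN genes was not tested.

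**Figure D5:**
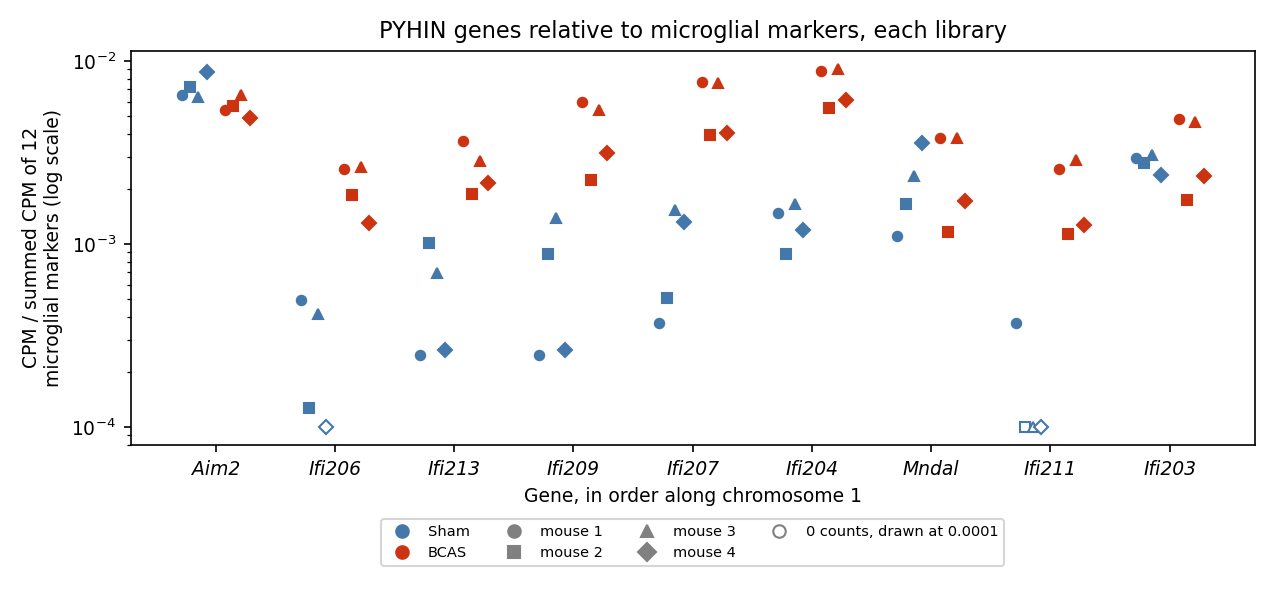
CPM of each PYHIN gene divided by the summed CPM of the 12 microglia markers in the same library (log scale), with sham mice in blue, BCAS mice in red, a symbol for each mouse and open symbols for 0 counts. Aim2, Mndal and Ifi203 overlap between the groups, and the other 6 genes lie higher in each BCAS mouse.

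The genes were also set against the summed level of the 12 microglia markers in the same library. Ifi204 was 0.00148, 0.000886, 0.00166 and 0.00119 of that sum in sham mice 1 to 4, but 0.00877, 0.00551, 0.00908 and 0.00613 of it after BCAS. The ratio was higher in each BCAS mouse than in each sham mouse for Ifi204, Ifi206, Ifi207, Ifi209, Ifi211 and Ifi213, and it was so for 0.998% of all genes tested. These are again the 6 genes that met the filter on low counts in at most 2 sham mice, and nothing is read from their count. Its mean was 5.66 times as high in BCAS mice for Ifi204, 4.76 times for Ifi213 and 8.08 times for Ifi206, the last over sham counts of 4 or fewer. Aim2, by contrast, was 0.00638 to 0.00870 of the sum in sham and 0.00488 to 0.00655 in BCAS mice. Its mean ratio in BCAS mice was 0.781 times that in sham mice, and 1.21 times for Mndal and 1.22 times for Ifi203, with overlapping groups in all 3 genes. The values behind these ratios are sums over whole tissue and were not tested.

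The list of inflammasome genes holds the partners of Aim2 and also the sensors and effectors of other inflammasomes. Of 13 tested, 9 were called higher, against 11.0% of all genes, 0 lower and 4 not called, with a median log2 fold change of 2.87. Casp4 met the filter on low counts in 1 sham mouse, and Il1b had 3, 8, 11 and 2 counts in sham mice 1 to 4. Some of the 9 thus entered the test through the BCAS mice, and nothing is read from their count. With at least 10 counts in every library, 5 of 9 tested were called higher. Pycard, which encodes the adaptor ASC that Aim2 binds through its pyrin domain, went from 2.45 ± 0.711 to 18.4 ± 10.6 CPM (SD, n = 4 each), a log2 fold change of 2.91 ± 0.43 (SE). Gsdmd, the pore-forming protein cut by caspase-1, changed by 2.88 ± 0.44 (SE) on the log2 scale, Nlrp3, the sensor of another inflammasome, by 3.55 ± 0.40 (SE), and Casp4, the mouse caspase-11, by 3.96 ± 0.48 (SE). The adjusted p values of these 4 ran from 0.00178 to 0.00355 (edgeR quasi-likelihood test, Benjamini-Hochberg). Outside the rule for examples and chosen after their values were seen, the substrate genes Il1b and Il18 had log2 fold changes of 3.25 ± 0.66 (SE) and 0.34 ± 0.10 (SE), and only the former was called. The difference between them was not tested. Casp1, chosen in the same way, changed by 1.96 ± 0.38 (SE) and was called.

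In the pathway of cytosolic DNA sensing and STING, 7 of 14 genes tested were called higher, against 11.0% of all genes, 0 lower and 7 not called, with a median log2 fold change of 1.30. Zbp1 met the filter on low counts in 2 sham mice, so it could enter the test through the BCAS mice. With at least 10 counts in every library, 6 of 13 tested were called higher. Tmem173, which encodes STING, had a mean of 3.64 ± 0.701 CPM in sham and 24.0 ± 14.9 CPM in BCAS mice (SD, n = 4 each), a log2 fold change of 2.72 ± 0.44 (SE; edgeR quasi-likelihood test, Benjamini-Hochberg adjusted p = 0.00410). The nucleic acid sensor Zbp1 had the largest change among the examples of this list, 5.06 ± 0.71 (SE) on the log2 scale and 4.45 without BCAS mouse 1. Dnase2a, the lysosomal DNase, changed by 2.94 ± 0.38 (SE) and Ikbke, a kinase of the TBK1 family, by 2.73 ± 0.46 (SE).

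Genes of interferon signaling, to which PYHIN genes are known to respond, were called higher in 10 of 15 cases, against 11.0% of all genes, lower in 0 and not called in 5, with a median log2 fold change of 1.74. Irf7, a factor that amplifies the type I interferon response, went from 3.22 ± 1.25 to 55.1 ± 41.2 CPM (SD, n = 4 each), a log2 fold change of 4.10 ± 0.58 (SE; edgeR quasi-likelihood test, Benjamini-Hochberg adjusted p = 0.00280) that was 3.48 without BCAS mouse 1. Irf9, another interferon regulatory factor, changed by 2.24 ± 0.32 (SE), Irf8, a factor of myeloid cells, by 3.96 ± 0.45 (SE), and Usp18, a brake on interferon receptors, by 3.69 ± 0.38 (SE). Ifnb1, the gene for interferon-beta itself, had 0 counts in every library, which allows up to 0.179 CPM.

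Across the 8 libraries, the genes of other families nearest to the mean pattern of the 9 PYHIN genes were Phf11b, Tlr1, Ly86, Cd68 and Lgals3bp, among 12438 candidates with a mean of at least 100 counts. Likeness was the root mean square difference between log2 changes from the sham mean over the 8 libraries, and it was 0.199 for Phf11b, 0.235 for Tlr1, 0.256 for Ly86, 0.272 for Cd68 and 0.277 for Lgals3bp. Phf11b changed by 5.46, 3.02, 4.84 and 4.22 in BCAS mice 1 to 4 on that scale, where the family mean changed by 5.83, 2.97, 4.85 and 4.08. Among the members themselves the difference from their mean was between 0.463 for Ifi213 and 1.37 for Aim2. With a smaller prior count of 0.5, which changes how low counts are drawn towards the mean, 2 of the 5 genes were kept.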

How the data were processed

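Per the file headers and the study's methods, the authors trimmed paired reads of 150 bases, aligned them to mm10 with HISAT2 and counted read pairs per gene with featureCounts. They deposited the counts without normalization. The headers name featureCounts 2.0.1 and GENCODE M20, whereas the submitters' processing notes name 1.6.3 and the methods RefSeq genes. No option for strand, multi-mapping or overlapping reads is named, so reads shared between similar PYHIN genes are left out at default settings. Symbols came from GENCODE M21 of the same build, and 54723 of 54752 IDs matched once version numbers were removed.

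The counts were tested with edgeR 4.0.16 (R 4.3.3) by its quasi-likelihood F-test, comparing BCAS with sham mice and using no covariates, after TMM normalization (factors of 0.950 to 1.05) and filterByExpr (minimum count 10, minimum total 15), which kept 17136 genes. The study used limma, which stands among the alternatives. Calls took an adjusted p under 0.05 (Benjamini-Hochberg) and a log2 fold change beyond 1 in either direction. The SE was derived from the F-statistic. Levels are TMM-normalized CPM, and log2 values used a prior count of 2. The test was checked on simulated data.

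The members, lists and tests were chosen with earlier results of these data known. Named genes were the members, the other PYHIN genes, called genes of other families within 500 kb, the 5 genes most like the family and at most 4 genes per list by lowest p. Ackr1 and Cadm3, Casp1, Il1b, Il18, Ifnb1, Ly6g, S100a8 and S100a9 were added after their values were seen. Alternatives were DESeq2 1.42.0 and its size factors, library size alone, 2 other filters, limma-voom and limma on log2(CPM + 1) (limma 3.58.1), a replicate block, thinning to the smallest library, leaving out each mouse and no limit on fold change. Proteins were not analysed here.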

Additional observations from a re-analysis of the deposited data

Results flagged for a closer look

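Ifi211 in the sham mice was set apart by 1 library. Sham mouse 1 had 3 counts and the other sham mice 0, so that the gap from the highest sham mouse to the next, divided by the range of the group, was 1. This is the largest value the ratio can take. Of 28 groups of 4 libraries examined for such a gap, 1 was noted. The ratio is 1 whenever only 1 library of a group has any count, and a group with 0 counts throughout cannot be marked. The usual chance rate of about 1 in 20 is therefore not a guide here. No BCAS group of a PYHIN gene was noted, although BCAS mouse 1 was the highest in each member.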

How the results depend on the processing

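All 9 genes were called higher under each alternative except 2, and none changed direction in any. The exceptions were a filter of at least 10 counts in every library, under which 2 of the 9 could be tested and 2 were called, and limma-voom, under which 7 were called. The fold changes of 38 genes named in the text gave 632 comparisons with an alternative, of which 611 left the gene on its side of the threshold, 21 lost a call and 0 turned direction. The calls were lost for Ifi203-ps, Snap25 and Tbr1, mostly when 1 mouse was left out, and for Mndal and Ifi203 with limma-voom. On the log2(CPM + 1) scale with limma, which draws low counts together, the changes of the members other than Aim2 ran from 2.31 (Mndal) to 4.07 (Ifi204). Over all genes, 2097 were called, 5490 with the adjusted p alone and 1644 to 2967 when 1 mouse was left out. The fold of the family's total was 13.8 to 26.0 when 1 mouse was left out. The set of genes most like the family kept 2 of 5 with a prior count of 0.5, and a stretch of 1000 kb held 3 called neighbours of 13 tested. Library size alone moved the median log2 fold change of all genes to 0.08.

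No pairing by the replicate numbers of the labels was seen. Mice of the same number deviated together with correlations of -0.05, -0.10, -0.01 and 0.00, and mice of different numbers with -0.11 to 0.12. A pairing that is weak beside the spread between BCAS mice could go unseen in this check. With the replicate number as a block, 9 members and 1809 genes in all were called. Blood leukocyte markers depended on the filter, with 14 of 14 called when no filter was used. Inflammasome genes called higher went from 9 of 13 to 5 of 9 with at least 10 counts in every library. Low sham counts limit the fold changes of Ifi206, Ifi211 and Ifi213, and long stretches shared with other genes limit the level of Ifi211.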
